A study of Mus musculus with 3 samples.

Results

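Brain endothelial barcodes that carried a transcript of Plvap were set against those that carried none. Of 12908 barcodes in the capture, 657 passed an endothelial gate, and 52 of these held at least 1 Plvap UMI (a UMI is 1 counted transcript molecule) and 605 held 0. The gate took barcodes with at least 500 genes, at most 15% mitochondrial UMIs and at most 30000 UMIs. It also asked for at least 3 of Cldn5, Flt1, Itm2a, Slco1a4, Ptprb and Pecam1, no Ptprc (the pan-leukocyte gene) and at most 2 UMIs of the epithelial keratin Krt8. The barcodes were thus chosen by the counts of Plvap and of these 8 genes, whose values are given as a description only.

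The cells came from metastasis-bearing brains of female C57Bl/6 mice aged 2 to 3 months. Metastases had been seeded by injecting E0771, a mouse mammary carcinoma line, into the carotid artery, and some mice received antibodies against VISTA and PD-L1 every other day from day 3 while others did not. Each of 8 samples was stained with 35 tagged antibodies and its own hashtag antibody, and all 8 were captured together. Which of them were treated is not given in the labels used here, so treated and untreated brains cannot be told apart on either side. Every comparison is within the endothelium. Percoll enrichment was aimed at immune cells, so these endothelial cells are what remained after a preparation for another cell type. The labels speak of brain hemispheres as the biological samples and do not say that each hashtag is a separate animal, so the p-values cover the spread between hashtag samples and nothing wider.

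Plvap encodes plasmalemma vesicle associated protein, which forms the diaphragms of fenestrae, caveolae and transendothelial channels. Endothelium of most organs and of the choroid plexus and circumventricular organs makes it, whereas the mature blood-brain barrier lacks it and instead holds claudin-5 tight junctions (Cldn5) and a set of nutrient and efflux transporters. Wnt and beta-catenin signalling, acting through factors such as Lef1, is known to keep brain endothelium in the barrier state, and vascular endothelial growth factor acting on Kdr is known to induce Plvap.

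Surface proteins were read through 15-base DNA barcodes carried by the antibodies. The 3 shown are the deposited barcodes of the tags that were higher on Plvap-positive endothelium, with lower case throughout because no part of a tag barcode has a role of its own.
CD24: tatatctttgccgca
I-A-I-E: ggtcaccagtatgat
CD38: cgtatccgtctccta

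Plvap-positive barcodes differed from Plvap-negative ones in many genes at once. Of 20 listed genes known from fenestrated and peripheral endothelium, 11 were expressed enough to be tested and 10 of these were higher (of all tested genes, 2.49% were). Gpihbp1, Plpp3 and Plpp1 led them, and Cd24a, the VEGF receptor Kdr and type IV collagen were also higher. A gene high on 1 side alone can pass the filter through that side, and the lists were chosen with earlier results of these data known. Counts of list members are therefore a description. Of 22 tested barrier transporters 12 were lower (of all tested genes, 3.82% were), among them Slco1c1, Slc2a1 and Mfsd2a, as were the transcription factors Foxq1 and Lef1. At the surface, the CD24 tag averaged 1087 tags per Plvap-positive barcode and 31.4 tags per Plvap-negative barcode.

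Plvap was found in 7.91% of endothelial barcodes (52 of 657, exact Clopper-Pearson 95% interval 5.97 to 10.2%, for counting error only). After every barcode was thinned to 2000 UMIs, 7.33% held it. Barcodes were assigned to a hashtag sample when 1 mouse hashtag made up at least 70% of their mouse hashtag counts, which placed 488 of the 657. Plvap was present in 0 of 8 barcodes of hashtag sample 1, 2 of 27 in sample 2, 4 of 59 in sample 3 and 1 of 35 in sample 4. It was present in 15 of 123 barcodes in sample 5, 4 of 113 in sample 6, 9 of 88 in sample 7 and 3 of 35 in sample 8, and in 14 of the 169 unassigned barcodes. The exact intervals of neighbouring shares overlapped widely, from the lowest nonzero share of 2.86% (0.0723 to 14.9%) in sample 4 to the highest of 12.2% (6.99 to 19.3%) in sample 5. Sample 4 held few barcodes. Samples 5 and 6 held the most, and the interval of sample 6 (3.54%, 0.973 to 8.82%) overlapped that of sample 5 only narrowly. For the 0 of 8 in sample 1 the exact upper limit was 36.9%.

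Background from free RNA was read in cells that should lack the gene. Of 4053 leukocyte barcodes with Ptprc and no gate gene, with a median depth of 9317 UMIs, 0.395% held a Plvap UMI, and 0.0255% did after thinning. The endothelial barcodes had a median depth of 7407.5 UMIs where Plvap was present and 4891 UMIs where it was not. None of 42 mural barcodes and none of 28 choroid plexus epithelial barcodes held one, which at exact upper limits of 8.41 and 12.3% says little. Of 188 quality-filtered barcodes with a Plvap UMI, 106 exceeded the UMI ceiling, 23 carried Ptprc, 1 exceeded the Krt8 limit, 6 had under 3 gate genes and 52 entered the comparison.

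Most Plvap-positive barcodes were far from the threshold. The level was 1 UMI in 6 barcodes, 2 to 9 UMIs in 7 and at least 10 UMIs in 39, up to 33 UMIs. Just inside the threshold, the 6 barcodes with 1 Plvap UMI were deep (median 13825 UMIs) and held Lef1 and Foxq1 in 6 of 6 barcodes, and Gpihbp1 and Rbp7 in 0 of 6. Just outside it, the 605 barcodes with 0 held Lef1 in 438, Foxq1 in 486, Gpihbp1 in 11 and Rbp7 in 1. Among the 39 barcodes with at least 10 Plvap UMIs, Lef1 was in 0, Foxq1 in 1, Gpihbp1 in 28 and Rbp7 in 27. Other genes placed the 1-UMI barcodes elsewhere: Slco1c1 stood at 112 CPM (its UMIs per 1e6 UMIs of the same barcodes), Spock2 at 213 CPM and Bsg at 2870 CPM in these 6, against 832, 1378 and 8736 CPM in the 605, and Plpp3 at 162 and 70.7 CPM. Detection also favours the deeper barcodes, and the 6 stay in every count because the rule includes them.

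**Figure D1:**
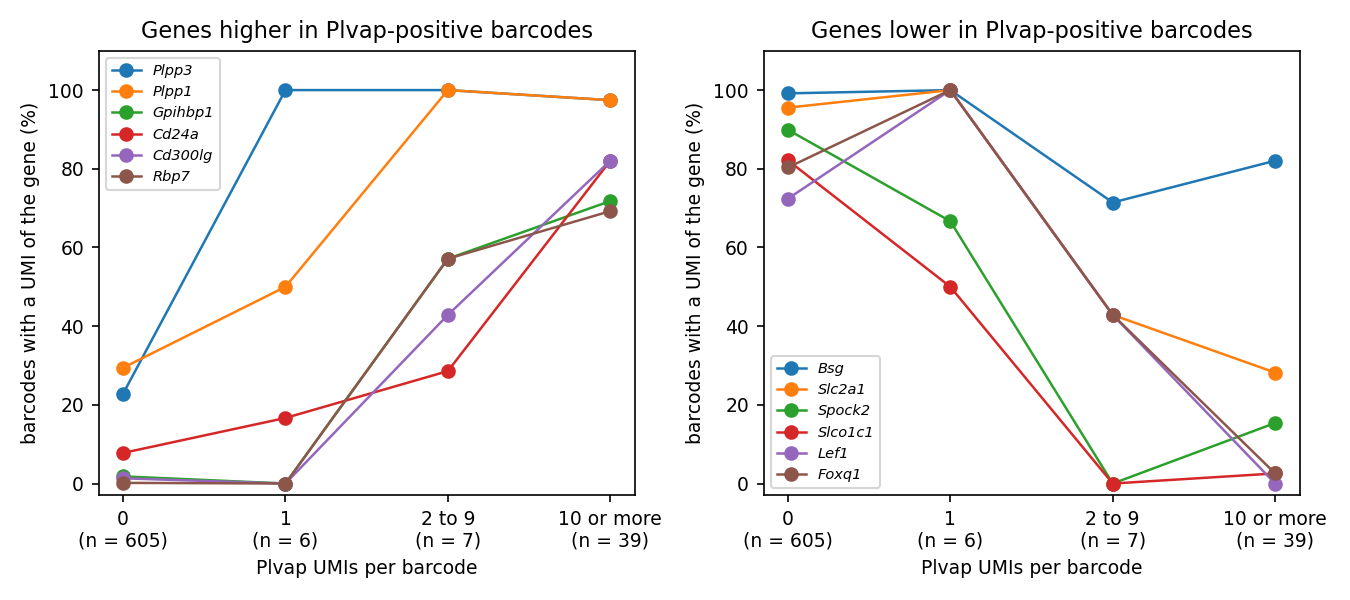
Share of endothelial barcodes with at least 1 UMI of each gene (vertical axis, %) by the number of Plvap UMIs in the barcode (horizontal axis, barcodes per class in brackets), for 6 genes higher (left) and 6 genes lower (right) in Plvap-positive barcodes. Lef1 and Foxq1 were found in 6 of 6 barcodes with 1 Plvap UMI and in 0 and 1 of the 39 with at least 10; depth differs between the classes, and the classes were drawn after the values were seen.

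Cldn5, the main claudin of the blood-brain barrier and a gate gene, was detected in 17 of 52 Plvap-positive barcodes and 595 of 605 Plvap-negative ones. Thinned to 2000 UMIs, the shares were 29.4 and 97.3%. Slco1a4, a gate gene that carries organic anions, was in 14 and 560 barcodes. Flt1, Ptprb and Pecam1, the pan-endothelial members of the gate, were in 52, 52 and 51 Plvap-positive barcodes and in 597, 576 and 539 Plvap-negative barcodes. Of the 52 Plvap-positive barcodes, 7 passed the gate with just 3 of its 6 genes and 10 with all 6, against 19 and 473 of the 605. Since 3 of the 6 had to be present, a barcode low in the barrier genes could enter only through the others, and nothing is read from these values.

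Other endothelial genes bear on the label. Of 17 tested endothelial identity genes outside the gate, Cdh5, Kdr and Emcn were higher in Plvap-positive barcodes, Sox17 and Bsg were lower and 12 did not pass edgeR's test over 5 hashtag samples, in which 2.49% of all tested genes were higher and 3.82% lower. Markers of other cells were present at different levels: fibroblast markers summed to 83.3 CPM in Plvap-positive and 46.3 CPM in Plvap-negative barcodes, carcinoma keratins and adhesion markers to 2.03 and 1.23 CPM, and lymphatic endothelial markers to 2.03 and 2.71 CPM. Of the lymphatic genes, Prox1 made up the 2.03 CPM in Plvap-positive barcodes, and Lyve1, Pdpn and Mmrn1 were at 0 there. With both sides this low, the zeros say little. Monocyte and macrophage markers summed to 203 and 221 CPM. Of 12 members, Chil3 and Ccr2 were at 0 in Plvap-positive barcodes and the others were not. Mural cell markers stood at 2681 CPM in Plvap-positive and 3540 CPM in Plvap-negative barcodes. Astrocyte markers stood at 319 and 447 CPM. Of 8 members, 6 were at 0 in Plvap-positive barcodes, among them Gfap, Aqp4 and Slc1a2, and 2 were at 0 on both sides. Gja1, which endothelium also expresses, was higher by 1.70 ± 0.40 on the log2 scale (SE, n = 5, edgeR adjusted p = 0.0204). The call of Gja1 was lost without hashtag sample 5, 6 or 8 (highest adjusted p 0.174), and sample 7 had 50.5 CPM on both sides.

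The rule asks for 10 barcodes on both sides of a hashtag sample, which 1 sample reached (sample 5, with 15 and 108). Values are therefore given first as pooled sums over the 52 and 605 barcodes, with no test. A test was added after the data had been seen, on the 5 hashtag samples with at least 3 barcodes on both sides (samples 3, 5, 6, 7 and 8), with the hashtag sample as a block. In those samples Plvap-positive barcodes summed to between 25919 and 141211 UMIs and Plvap-negative barcodes to between 255330 and 870578 UMIs.

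In pooled sums, 288 of 5857 genes (4.92%) were at least 2-fold higher and 305 (5.21%) at least 2-fold lower in Plvap-positive barcodes, after 5 CPM had been added to both sides. In edgeR's quasi-likelihood test over the 5 samples, 88 of 3532 genes (2.49%) were higher and 135 (3.82%) lower at an adjusted p under 0.05. Of those, 75 and 122 were also past 2-fold in the pooled sums. The ranges over the 5 samples did not overlap for 100 tested genes above (2.83%) and 209 below (5.92%), which included 52 of the 88 and 115 of the 135. Without hashtag sample 6 the counts were 48 higher and 78 lower, and without sample 5 they were 51 and 68. With 52 Plvap-negative barcodes matched to the Plvap-positive ones in depth, 26 genes were higher and 33 lower among 919 tested, while the pooled counts were 308 and 301.

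**Figure D2:**
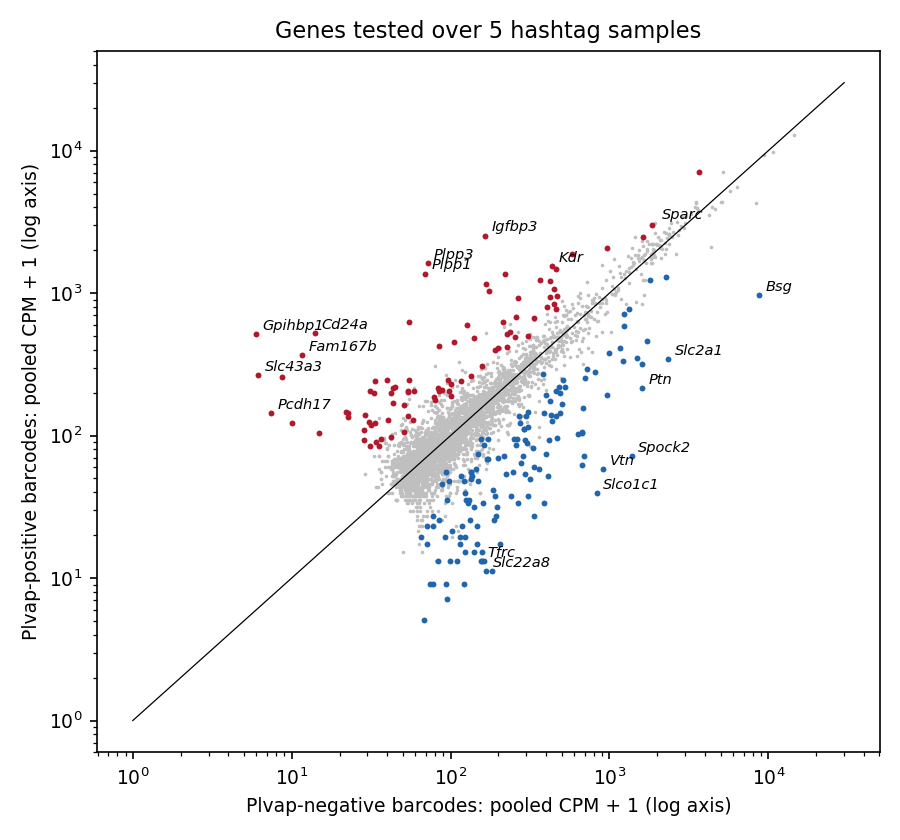
Pooled CPM plus 1 of each gene tested over 5 hashtag samples in Plvap-positive barcodes (vertical log axis) and Plvap-negative barcodes (horizontal log axis), with the line of equal levels. The 88 red points were higher and the 135 blue points lower in Plvap-positive barcodes (edgeR adjusted p under 0.05), and grey points passed neither way.

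Gpihbp1 encodes the protein that anchors lipoprotein lipase to the capillary wall. It stood at 279, 545, 660.1, 88.4 and 1736 CPM in Plvap-positive barcodes of hashtag samples 3, 5, 6, 7 and 8, against 2.47, 1.15, 11.6, 1.80 and 0 CPM in Plvap-negative barcodes of the same samples. Every Plvap-positive value lay far above every Plvap-negative one. The log2 fold change was 6.95 ± 0.46 (SE, n = 5, edgeR adjusted p = 1.42e-06), the largest among the tested genes apart from Plvap itself. The pooled sums differed by 105-fold (counting interval 66.6 to 175).

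Plpp3 and Plpp1 encode lipid phosphate phosphatases of the cell surface, which break down lysophosphatidic acid and related lipids. Plpp3 stood at 446, 1664, 1338, 1048 and 3472 CPM in Plvap-positive barcodes of samples 3, 5, 6, 7 and 8, against 64.3, 90.7, 80.2, 63.2 and 58.7 CPM in Plvap-negative barcodes. Plpp1 stood at 577, 1579, 963, 998 and 1698 CPM, against 49.5, 65.5, 84.8, 45.1 and 94.0 CPM. The sides did not overlap for either gene, and sample 3 gave the lowest Plvap-positive value of both. The log2 fold changes were 4.20 ± 0.33 and 4.07 ± 0.25 (SE, n = 5, edgeR adjusted p = 5.01e-06 and 1.01e-06). After thinning, Plpp1 was found in 74.5% of Plvap-positive and 11.7% of Plvap-negative barcodes.

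Of 20 genes listed for fenestrated and peripheral endothelium, 11 were expressed enough to be tested and 10 of them rose, with a median log2 fold change of 2.59 beside -0.02 over all tested genes. A gene high on 1 side alone can pass the filter through that side, so this median describes only the genes that passed. Besides the 3 above and Kdr and Nrp1, Igfbp3 (4.0 on the log2 scale), Meox1 (3.04), Ehd4 (2.59), Rgcc (2.33) and Stab1 (1.65) rose. Ehd4, a membrane remodelling ATPase of the caveolar neck, stood at 818, 1126, 981, 758 and 1659 CPM in Plvap-positive barcodes of the 5 samples, against 168, 150.5, 179, 168 and 196 CPM in Plvap-negative barcodes. The 1 tested member that did not pass, Tbx3, had a log2 value of -1.53 ± 0.48 (SE, n = 5, edgeR adjusted p = 0.0818).

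The other 9 members were not tested. Esm1, which encodes endocan, a secreted proteoglycan of angiogenic tip cells, had 125 UMIs in 28 Plvap-positive barcodes and 0 UMIs in 605 Plvap-negative ones, at least 343-fold higher when 3 counts are allowed over the Plvap-negative side. Exoc3l2 was 59.1-fold higher in pooled sums, and Aqp1, a water channel, 68.5-fold. Aqp1 came from 10 Plvap-positive barcodes, 1 of which gave 40.7% of its UMIs. Fabp4 had 34 and 21 UMIs, with 91.2% of the 34 in 1 barcode, and Cdh13 had 112 and 41.4 CPM. Cd36, Dnase1l3, Timp4 and Gata4 were at 0 in Plvap-positive barcodes, of which Cd36 and Timp4 had 3 and 26 UMIs on the Plvap-negative side.

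Several genes outside that list were present almost solely in Plvap-positive barcodes and were singled out after their values were seen. Rbp7, a cellular retinol-binding protein gene, had 208 UMIs in 31 of 52 Plvap-positive barcodes and 1 UMI in 605 Plvap-negative ones, a ratio of 1715 with a counting interval of 304 to 68049. Hashtag sample 3 had 0 CPM of Rbp7 and of Esm1 on both sides, while the Plvap-positive barcodes of samples 5, 6, 7 and 8 had 453, 464, 152 and 733 CPM of Rbp7. Cd300lg, whose product is a lymphocyte-binding mucin of capillary endothelium, Col15a1, a basement membrane collagen, and Ednrb, an endothelin receptor, were 122-, 109.9- and 84.7-fold higher. Car8 was 317-fold higher, with 77 and 2 UMIs. For Cd300lg, Col15a1, Ednrb and Car8 the Plvap-positive value exceeded the Plvap-negative value in 5 of 5 samples.

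The 12 genes with the largest increases among those that passed the test also held Slc43a3, a transporter of purine nucleobases (5.39), Fam167b (5.15), Tnfaip2 (4.74), Thrsp, a regulator of lipid synthesis (4.67), Cd24a (4.58), the protocadherin gene Pcdh17 (4.32) and Plscr2 of the phospholipid scramblase family (3.24), all on the log2 scale. Fam167b stood at 595, 389, 357, 126 and 347 CPM in Plvap-positive barcodes of samples 3, 5, 6, 7 and 8, against 7.42, 12.6, 10.5, 10.8 and 0 CPM in Plvap-negative barcodes. It was in 45 of 52 and 13 of 605 barcodes. Of these 12 genes, Igfbp3 and Meox1 overlapped between the sides over the 5 samples and the other 10 did not. Igfbp3, a binding protein for insulin-like growth factors, ranged from 260.4 to 9723 CPM in Plvap-positive and from 66.6 to 353 CPM in Plvap-negative barcodes, with sample 3 the lowest of the Plvap-positive values.

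**Figure D3:**
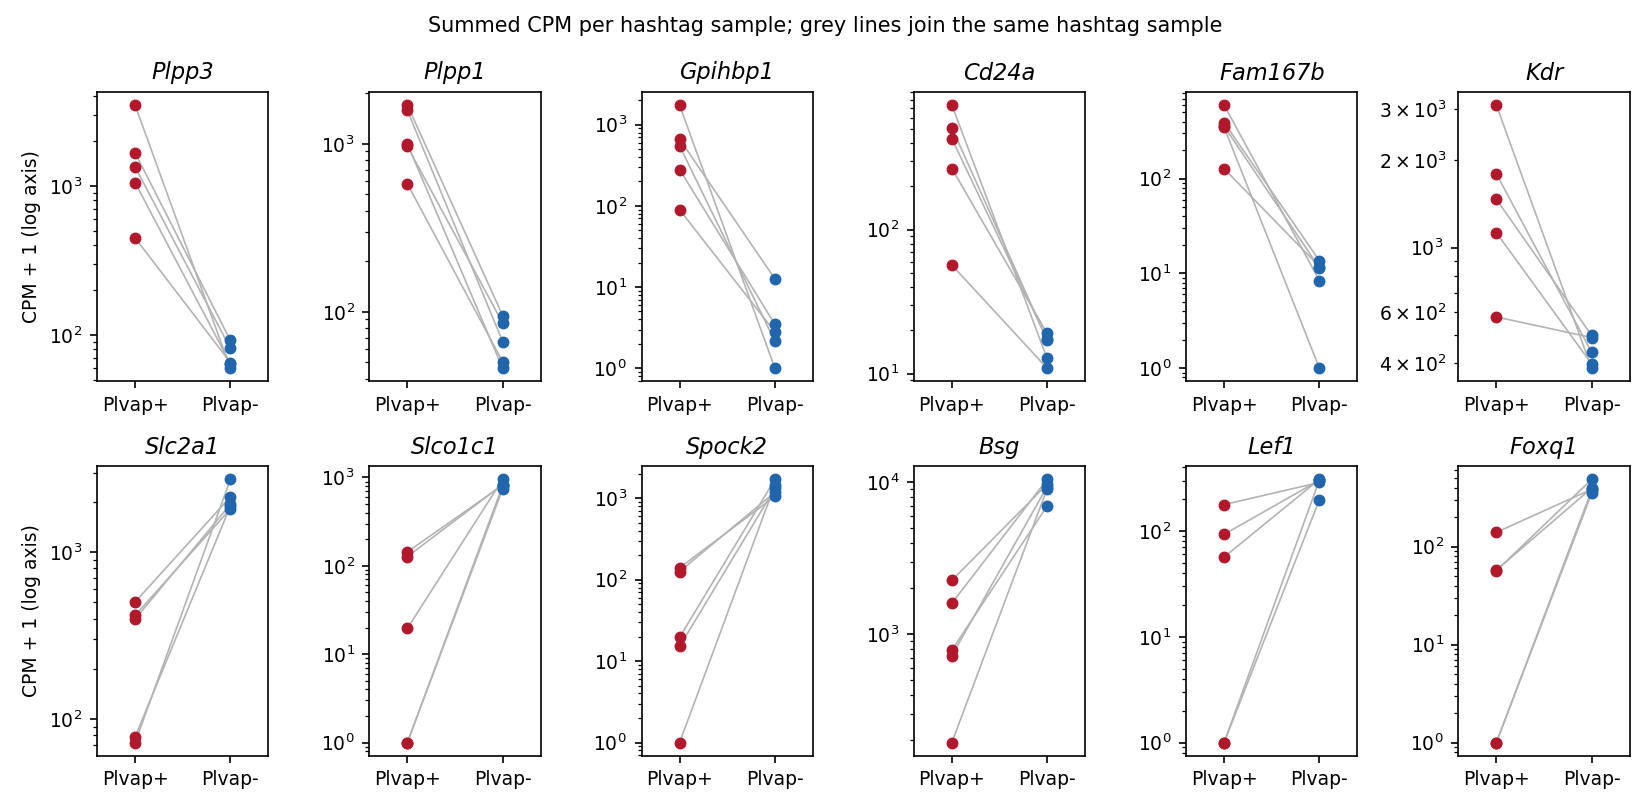
Summed CPM plus 1 (log axis) of 12 genes in Plvap-positive (left, red) and Plvap-negative (right, blue) barcodes of hashtag samples 3, 5, 6, 7 and 8, with grey lines joining the sides of 1 sample. The top row holds genes that were higher and the bottom row genes that were lower in Plvap-positive barcodes, and the sides did not overlap in any of the 12.

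Receptors for growth factors moved in part. Of 14 tested genes for VEGF, angiopoietin, TGF-beta and related receptors, Kdr, Nrp1, Calcrl and Ramp3 rose and 10 did not pass. Over all tested genes, 2.49% were higher and 3.82% lower. Kdr, the main signalling receptor for VEGF-A, stood at 577, 1792, 1124, 1465 and 3087 CPM in Plvap-positive barcodes of samples 3, 5, 6, 7 and 8, against 489.7, 435, 397, 498 and 384 CPM in Plvap-negative barcodes. Sample 3 was the closest to its Plvap-negative counterpart, and all 5 Plvap-positive values were above all 5 others. The log2 fold change of Kdr was 1.70 ± 0.30 (SE, n = 5, edgeR adjusted p = 0.00318). Nrp1, its co-receptor, was 2.44 ± 0.33 higher on the log2 scale (adjusted p = 5.11e-04). Calcrl and Ramp3, which together form a receptor for adrenomedullin, were higher by 1.09 and 2.80 on that scale, the call of Calcrl being lost without hashtag sample 3, 5 or 6 (highest adjusted p 0.116). Their other partner Ramp2 had a log2 value of -0.53 ± 0.20 (edgeR adjusted p = 0.153), and Flt4 one of 0.90 ± 0.34 (adjusted p = 0.160).

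In pooled sums, 13 of 22 tip cell genes were at least 2-fold higher and 3 lower, beside 4.92 and 5.21% of all genes. In the test of 12 of them, 6 rose and none passed as lower, beside 2.49 and 3.82% of all tested genes: Nid1, Kdr, Igfbp3, Col4a1, Col4a2 and Rgcc, with 3 of these also in the list for fenestrated endothelium. The median log2 fold change was 1.37. Angpt2, an angiopoietin of sprouting vessels, had a value of 1.25 ± 0.49 (edgeR adjusted p = 0.171), and Apln, not tested, had 48.8 CPM in Plvap-positive and 55.0 CPM in Plvap-negative barcodes. Among 18 tested genes of basement membrane and matrix, 8 rose and 1 fell. Col4a1, a chain of type IV collagen, stood at 2678, 2280.3, 2177, 682 and 2199 CPM in Plvap-positive barcodes of the 5 samples, against 709.8, 620.3, 558, 449 and 634 CPM in Plvap-negative barcodes, with sample 7 alone inside the other side's range. Hspg2, which encodes perlecan, rose by 2.16 and Col18a1, the precursor of endostatin, by 1.97 on the log2 scale. Col18a1 missed the threshold without hashtag sample 6 (adjusted p = 0.0852), and Nid1 without sample 5 or 6 (0.0904 and 0.0848). Fn1, fibronectin, was the member that fell, with a log2 value of -1.47 ± 0.26 (edgeR adjusted p = 0.00318).

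Barrier transporters were the list with the most genes lower. Of 22 tested, 12 fell (3.82% of all tested genes did), none rose and 10 did not pass, with a median log2 fold change of -1.75. In pooled sums, 18 of 23 were at least 2-fold lower and 0 higher, beside 5.21 and 4.92% of all genes. Slco1c1, which carries thyroxine across the barrier, stood at 18.6, 0, 143, 126 and 0 CPM in Plvap-positive barcodes of samples 3, 5, 6, 7 and 8, against 949.7, 739.7, 817, 828 and 807 CPM in Plvap-negative barcodes. It was in 4 of 52 and 497 of 605 barcodes. Slc2a1, the glucose transporter GLUT1, stood at 502, 397, 71.4, 417 and 77.2 CPM, against 2142, 1934, 2728, 1815 and 1888 CPM. For both genes every Plvap-positive value was below every Plvap-negative one. Their log2 fold changes were -3.95 ± 0.55 and -2.84 ± 0.41 (SE, n = 5, edgeR adjusted p = 7.24e-04 and 8.11e-04).

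The lipid transporter Mfsd2a, known to hold transcytosis low in brain endothelium, was at 0 CPM in Plvap-positive barcodes of samples 3, 6, 7 and 8 and at 35.4 CPM in sample 5, against 98.8 CPM in sample 5 and 97.9 to 156 CPM over all 5 on the Plvap-negative side. Slc22a8, an organic anion transporter, Slc16a1, the lactate transporter MCT1, and Tfrc, the transferrin receptor, fell, with log2 values of -3.38, -3.33 and -3.30. Slc40a1, the iron exporter ferroportin, had a log2 value of -3.11 and Slc7a5, a large neutral amino acid transporter, one of -2.29, both past the test. Abcb1a, which encodes the efflux pump P-glycoprotein, stood at 353, 77.9, 161, 354 and 116 CPM in Plvap-positive barcodes of the 5 samples, against 1071, 937, 912, 922 and 967 CPM in Plvap-negative barcodes. Abcg2, the other large efflux pump of the barrier, had a log2 value of -0.71 ± 0.26 (edgeR adjusted p = 0.144) and Slc3a2 one of -0.52 ± 0.23 (adjusted p = 0.247). Bsg, the transporter chaperone basigin, was at 1112 ± 816 CPM in Plvap-positive and 9105 ± 1296 CPM in Plvap-negative barcodes (SD, n = 5), with a log2 fold change of -3.22 ± 0.40 (SE, edgeR adjusted p = 2.99e-04).

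The largest decreases were not all transporters. Spock2, a secreted proteoglycan of brain capillaries, stood at 18.6, 14.2, 125, 139 and 0 CPM in Plvap-positive barcodes of samples 3, 5, 6, 7 and 8, against 1704, 1319, 1185, 1054 and 1457 CPM in Plvap-negative barcodes. Its log2 fold change was -4.45 ± 0.50 (SE, n = 5, edgeR adjusted p = 1.49e-04), with no overlap. Ndnf (-4.35), Vtn (-4.04), Gkn3 (-4.00), Tpd52l1 (-3.52), the sphingomyelin synthase gene Sgms2 (-3.40), Pdxk, which makes the active form of vitamin B6 (-3.30), and Itih5 (-3.29) followed on the log2 scale. In Plvap-negative endothelium, Vtn was in 123 and Gkn3 in 108 of 605 barcodes, so these genes came from a minority. Vtn, vitronectin, is also a pericyte gene, and the mural marker sum ranged from 18.6 to 4888 CPM over the Plvap-positive and from 1923 to 4479 CPM over the Plvap-negative sides of the 5 samples. Without barcodes that held at least 2 mural markers, 63 genes were higher and 114 lower.

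Junction genes were mixed. Of 14 tested, Ocln, Tjp1, Lsr and Pard3 fell, Cdh5 rose and 9 did not pass, beside 3.82% lower and 2.49% higher over all tested genes. Ocln, the tight junction protein occludin, stood at 55.8, 7.08, 17.8, 75.8 and 0 CPM in Plvap-positive barcodes of the 5 samples, against 188, 181, 182, 197 and 192 CPM in Plvap-negative barcodes. Its log2 fold change was -2.54 ± 0.45, and that of the scaffold gene Tjp1, whose product is ZO-1, was -1.09 ± 0.23 (SE, n = 5, edgeR adjusted p = 0.00383 and 0.0121). Cdh5, VE-cadherin of the adherens junction, rose by 0.92 ± 0.23 (adjusted p = 0.0268). The call of Cdh5 was lost without hashtag sample 3, 5, 6 or 8 (highest adjusted p 0.113), and that of Tjp1 without sample 5 (0.0942). Lsr was lost without sample 5, 6, 7 or 8 (highest 0.150) and Pard3 without any 1 of the 5 (highest 0.12). Esam and Ctnnb1 had log2 values of -0.15 ± 0.20 and 0.15 ± 0.22 (edgeR adjusted p = 0.783 and 0.813).

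The Wnt and beta-catenin pathway had members lower and none higher in the test. Of 11 tested, the transcription factor Lef1, the feedback inhibitor Nkd1, the ligand co-factor Reck and Tnfrsf19 fell, beside 3.82% of all tested genes, and 7 did not pass. In pooled sums, 6 of 16 were at least 2-fold lower and 1 higher, beside 5.21 and 4.92% of all genes. The receptor Fzd4 and its co-factor Tspan12 had log2 values of 0.64 ± 0.34 and 0.95 ± 0.33 (edgeR adjusted p = 0.356 and 0.123). Lef1 stood at 55.8, 92.1, 0, 177 and 0 CPM in Plvap-positive barcodes of samples 3, 5, 6, 7 and 8, against 307, 301, 196, 287 and 302 CPM in Plvap-negative barcodes. The sides did not overlap, sample 7 coming closest, and the log2 fold change was -1.89 ± 0.43 (SE, n = 5, edgeR adjusted p = 0.0179). Without hashtag sample 5 or 6 its adjusted p was 0.0625 and 0.0597. The calls of Reck and Tnfrsf19 were lost without several single samples, with highest adjusted p-values of 0.162 and 0.187 without sample 5, where Nkd1 had 0.0638. The untested target genes Axin2, Apcdd1 and Notum had 5, 1 and 0 UMIs in Plvap-positive barcodes and 253, 123 and 135 UMIs in Plvap-negative barcodes, so Notum was at least 5.46-fold lower.

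Among transcription factors of the barrier state, Foxq1, Sox17 and Lef1 fell. Foxq1 stood at 55.8, 56.7, 0, 139 and 0 CPM in Plvap-positive barcodes of samples 3, 5, 6, 7 and 8, against 485, 395, 349.7, 384 and 376 CPM in Plvap-negative barcodes. Its log2 fold change was -2.78 ± 0.44 (SE, n = 5, edgeR adjusted p = 0.00156). Foxf2 and the glucocorticoid receptor gene Nr3c1 had values of -0.36 ± 0.27 and -0.46 ± 0.24 (edgeR adjusted p = 0.563 and 0.342). The residual Lef1 and Foxq1 came largely from barcodes with few Plvap UMIs, since 9 of the 9 Lef1-positive and 9 of the 10 Foxq1-positive barcodes held fewer than 10.

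**Figure D4:**
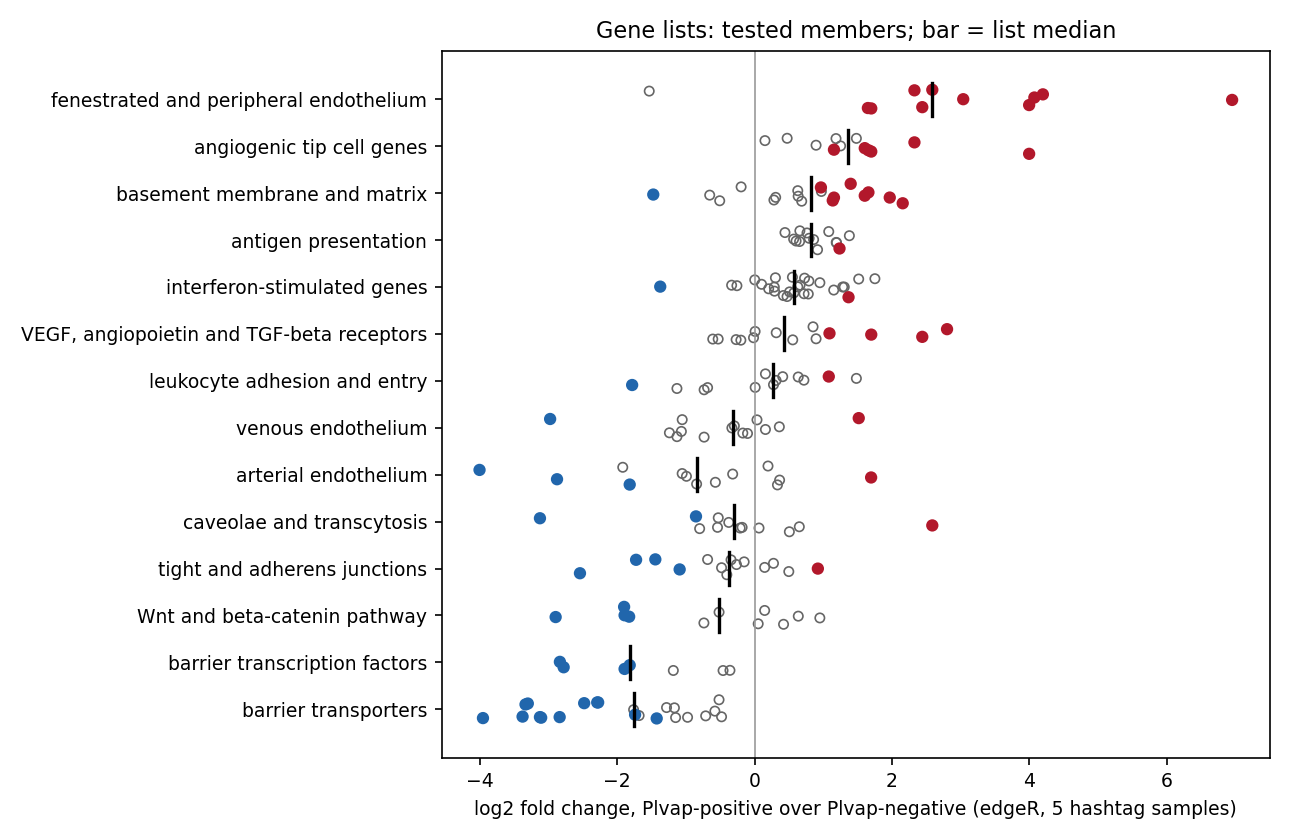
Log2 fold change, Plvap-positive over Plvap-negative, of the tested members of 14 gene lists over 5 hashtag samples (horizontal axis), with 1 point a gene and a black bar at each list's median. Red points were higher and blue points lower (edgeR adjusted p under 0.05), and open points did not pass; medians were 2.59 for fenestrated and peripheral endothelium and -1.75 for barrier transporters.

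Genes of vessel segments moved both ways. Among 13 arterial genes Efnb2 rose and Gkn3, Stmn2 and Sox17 fell, and among 14 venous genes the sialomucin gene Emcn rose and Lcn2 fell. The median log2 values were -0.84 and -0.31, beside -0.02 over all tested genes, of which 2.49% were higher and 3.82% lower. Past 2-fold in pooled sums, 2 of 16 arterial genes were higher and 3 lower, and 3 of 18 venous genes were higher and 1 lower. The pooled shares of all genes were 4.92% higher and 5.21% lower. Efnb2 and Lcn2 lost their calls without hashtag sample 5, 6 or 8 (highest adjusted p 0.116 and 0.133). Emcn stood at 577 to 1350.4 CPM in Plvap-positive and 298 to 517 CPM in Plvap-negative barcodes of the 5 samples, with no overlap. Stmn2 had 93.4 CPM in Plvap-positive and 155 CPM in Plvap-negative pooled sums, with 54.3% of its Plvap-positive UMIs in 1 barcode. Of 12 genes of caveolae and transcytosis, Ehd4 rose, Mfsd2a and Cavin1 fell and 9 did not pass. Cavin1 missed the threshold without hashtag sample 3, 5, 6 or 7 (highest adjusted p 0.251). Cav1, the main caveolin, had a log2 value of -0.38 ± 0.25 (SE, n = 5, edgeR adjusted p = 0.494).

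Of 13 tested genes for leukocyte adhesion and entry, Cd47 rose, the chemokine gene Cxcl12 fell and 11 did not pass, beside 2.49% higher and 3.82% lower over all tested genes. In pooled sums, 1 of 15 was past 2-fold each way, beside 4.92% higher and 5.21% lower of all genes. The adhesion molecules Icam1 and Vcam1 had log2 values of 0.16 ± 0.42 and -1.13 ± 0.57 (edgeR adjusted p = 0.914 and 0.318). Klf2 and Klf6 fell, with log2 values of -0.87 and -1.05, among 18 immediate early and flow-responsive genes, and Slc2a1 and Ndrg1 fell among 12 genes of glycolysis and the hypoxia response. Several of these calls were lost when 1 sample was left out. Without hashtag sample 6 the adjusted p was 0.106 for Cd47, 0.0632 for Cxcl12, 0.133 for Klf2, 0.0863 for Klf6 and 0.150 for Ndrg1. Without sample 5 the same p was 0.0606 for Cd47, 0.136 for Klf2, 0.0998 for Klf6 and 0.0869 for Ndrg1, and Klf2 also missed the threshold without sample 3 or 8 and Ndrg1 without sample 7. Of 24 cell cycle genes 4 could be tested and none passed. In pooled sums 6 of 13 were at least 2-fold higher and 1 lower, beside 4.92 and 5.21% of all genes. Mki67 had 28 UMIs in 3 Plvap-positive barcodes, 82.1% of them in 1, and 40 UMIs in 13 Plvap-negative barcodes.

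Interferon and antigen presentation genes passed the test at shares near those of all tested genes (2.49% higher, 3.82% lower), while pooled sums held more of them past 2-fold. In pooled sums, 7 of 28 interferon-stimulated and 8 of 20 antigen presentation genes were at least 2-fold higher and 0 of either lower, beside 4.92% higher and 5.21% lower of all genes. The samples differed for the interferon list, whose median log2 ratios were 1.38, -0.30, 1.83, -0.42 and -0.15 in samples 3, 5, 6, 7 and 8. Its summed CPM was higher in Plvap-positive barcodes in 3 of 5 samples, and that of the antigen presentation list in 5 of 5. In the test, of 27 interferon-stimulated genes, Bst2, which encodes tetherin, rose, Ifit1 fell and 25 did not pass, with a median log2 fold change of 0.57. Of 14 antigen presentation genes, the immunoproteasome subunit gene Psmb8 rose and 13 did not pass, with a median of 0.83. Without hashtag sample 6 the adjusted p was 0.115 for Bst2 and 0.154 for Psmb8, and without sample 5 that of Ifit1 was 0.123. Psmb8 also missed the threshold without sample 3, 5 or 7, and Ifit1 without sample 8. B2m, the light chain of MHC class I, stood at 5952, 2316, 1445, 2122 and 3357 CPM in Plvap-positive barcodes of samples 3, 5, 6, 7 and 8, against 1345, 1469, 1329, 1550.1 and 2459.6 CPM in Plvap-negative barcodes, with an edgeR adjusted p of 0.167. Sample 3 was the highest of all, and the sides overlapped.

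The chemokine gene Cxcl9 had 1016 CPM in Plvap-positive and 13.6 CPM in Plvap-negative barcodes, but 7 Plvap-positive barcodes held it and 1 of them gave 56.4% of its UMIs. Its Plvap-positive values were 9133, 42.5, 53.5, 0 and 0 CPM in samples 3, 5, 6, 7 and 8, against 2.47, 18.4, 5.81, 48.7 and 3.92 CPM on the Plvap-negative side, so the pooled fold of 74.9 belongs to 1 sample. Cd74, the invariant chain of MHC class II, stood at 2176, 411, 35.7, 189 and 965 CPM in Plvap-positive barcodes, against 22.3, 35.6, 29.0, 18.0 and 35.2 CPM in Plvap-negative barcodes. It was in 18 of 52 and 101 of 605 barcodes and, like the class II chains H2-Ab1, H2-Aa and H2-Eb1, was too sparse to be tested. The leukocyte barcodes held 2020 CPM of Cd74 and 877 CPM of Tyrobp, a myeloid gene that stood at 24.4 CPM in Plvap-positive and 26.9 CPM in Plvap-negative endothelium. The monocyte and macrophage marker sum was 71.4 to 455 CPM over the Plvap-positive and 47.0 to 143 CPM over the Plvap-negative sides of the 5 samples. Its part in the class II values was not tested.

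Antibody tags gave a readout that the gate did not use. Of 32 tags with counts enough to test, 3 were higher (9.38%) and 3 lower (9.38%) in Plvap-positive barcodes in edgeR's test over the 5 samples. CD24, a small surface sialoglycoprotein that binds P-selectin, averaged 215.5, 1060, 1698, 470 and 1695 tags per Plvap-positive barcode of samples 3, 5, 6, 7 and 8, against 31.9, 37.3, 32.5, 32.2 and 38.1 tags per Plvap-negative barcode. The lowest Plvap-positive mean, in sample 3, was above every Plvap-negative mean. The log2 fold change was 4.77 ± 0.56 (SE, n = 5, edgeR adjusted p = 9.55e-06).

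The CD24 tag followed its own transcript within Plvap-positive endothelium. The 35 Plvap-positive barcodes with a Cd24a UMI had a median of 1207 CD24 tags, and the 17 without one had a median of 25. In Plvap-negative barcodes the medians were 35 tags for the 47 with a Cd24a UMI and 24 tags for the 558 without. More than 400 tags were found on 30 of 52 Plvap-positive and 0 of 605 Plvap-negative barcodes. That cutoff lies just above the highest Plvap-negative value of 387 tags, which fixes the 0. More than 200 tags were found on 31 and 2 barcodes, and more than 100 tags on 34 and 18. Cd24a itself stood at 55.8, 509.9, 428, 265 and 733 CPM in Plvap-positive barcodes of the 5 samples, against 9.89, 16.1, 16.3, 18.0 and 11.7 CPM in Plvap-negative barcodes.

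**Figure D5:**
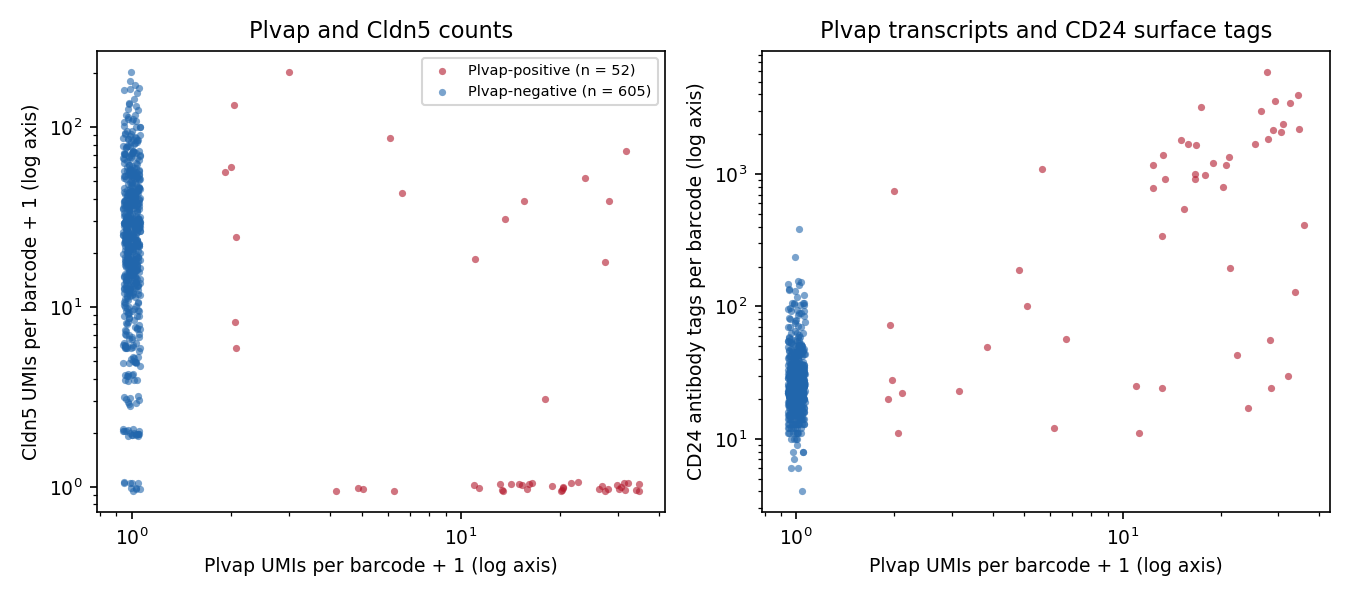
Each point is 1 endothelial barcode (52 Plvap-positive in red, 605 Plvap-negative in blue), with Plvap UMIs plus 1 on the horizontal log axis and Cldn5 UMIs plus 1 (left) or CD24 antibody tags (right) on the vertical log axis. Of 39 barcodes with at least 10 Plvap UMIs, 31 had 0 Cldn5 UMIs, and 30 Plvap-positive barcodes, with 0 Plvap-negative ones, had over 400 CD24 tags. That level lies just above the highest Plvap-negative value of 387 tags.

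The other tags differed by less. I-A-I-E, which recognises MHC class II, averaged 69.8, 62.5, 17.3, 134 and 86.3 tags per Plvap-positive barcode of samples 3, 5, 6, 7 and 8, against 16.9, 16.2, 16.2, 12.1 and 45.1 tags per Plvap-negative barcode, with a log2 fold change of 1.96 ± 0.41 (SE, n = 5, edgeR adjusted p = 0.00194). Its medians were close, at 15.5 and 12 tags, so the means were raised by a minority of barcodes. CD38, an ectoenzyme that consumes NAD, averaged 548, 848, 756, 622 and 1028 tags per Plvap-positive barcode, against 293, 340.0, 280.2, 251 and 319 tags per Plvap-negative barcode, with a log2 fold change of 1.54 ± 0.37 (adjusted p = 0.00525). The transcript Cd38 did not pass, with a log2 value of 1.01 ± 0.37 (edgeR adjusted p = 0.144). The sides of CD38 did not overlap, while the Plvap-positive mean of I-A-I-E in sample 6 lay within the Plvap-negative range. Ly6C averaged 509 tags per Plvap-positive and 996 tags per Plvap-negative barcode. Its log2 value of -0.91 ± 0.37 did not pass (edgeR adjusted p = 0.118). With tags scaled per barcode instead, edgeR gave -1.13 (adjusted p = 0.0197). CD90.1, CD83 and CD4 were lower, by -1.87, -1.67 and -1.01 on the log2 scale. CD90.1 and CD83 averaged 0.231 and 0.462 tags per Plvap-positive and 0.922 and 1.03 tags per Plvap-negative barcode, near the bottom of what these tags can show. CD4 averaged 4.62 and 9.27 tags. The transcript Cd4 had 1 UMI in Plvap-positive and 0 UMIs in Plvap-negative barcodes. Thy1, the CD90 gene, had 1 and 7 UMIs, and Cd83 had 8 and 99 UMIs. Whether these 3 tags differed in bound protein or in background was not tested.

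Plvap-positive barcodes can be divided by Cldn5, a gate gene, as a description only. Of the 39 with at least 10 Plvap UMIs, 31 had 0 Cldn5 UMIs and 8 had some, a split made after the values were seen and given without a test. The 8 were deeper, which favours detection of Cldn5 and of other genes in them. Neither depth nor doublets were tested as a source of the split. The 31 without Cldn5 held Cd24a in 29, Cd300lg in 29 and Car8 in 23, with a median of 1207 CD24 tags and a median depth of 4542 UMIs. The 8 with Cldn5 held Cd24a in 3, Cd300lg in 3 and Car8 in 2, with a median of 27 CD24 tags and a median depth of 14592.5 UMIs. Aqp1 was in 2 of the 31 and 4 of the 8, and Vwf, von Willebrand factor, in 0 and 5. Kdr was in every barcode of both groups, at 2647 CPM in the 31 and 682 CPM in the 8, and Lef1 was in none of either. The 8 lay in 3 hashtag samples where assigned, and the 31 in 7.

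Promoters were read for the TCF/LEF core motif CTTTGA on both strands, since the Wnt factor Lef1 fell. The sequences are from RefSeq on GRCm38.p6 and run from 250 bases before to 50 after a start site. Of 88 higher genes 68 had an entry and of 135 lower genes 104 did. The motif was in 8.42% of 95 promoters of higher genes and in 14.9% of 148 promoters of lower genes, beside 11.5% of the promoters of tested genes and 5257 of all 32851 promoters. Both shares were below that of all promoters. Most named lower genes with an entry lacked the motif: Slco1c1, Slc22a8, Slc16a1, Tfrc, Slc2a1, Vtn and Gkn3 held none. Lef1 had promoters with and without it. Spock2, the gene with the largest decrease, is shown with its motif in capitals (chr10:60106007-60106306, plus strand), and Plpp3, a gene with a large increase, holds none (chr4:105157097-105157396, plus strand). The pair is an example and does not stand for the lower and higher genes.
Spock2: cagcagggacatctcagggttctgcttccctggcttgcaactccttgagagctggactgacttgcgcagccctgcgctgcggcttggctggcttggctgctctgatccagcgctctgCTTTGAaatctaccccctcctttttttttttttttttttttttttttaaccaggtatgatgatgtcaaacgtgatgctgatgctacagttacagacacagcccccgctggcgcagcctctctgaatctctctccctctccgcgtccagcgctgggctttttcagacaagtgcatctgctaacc
Plpp3: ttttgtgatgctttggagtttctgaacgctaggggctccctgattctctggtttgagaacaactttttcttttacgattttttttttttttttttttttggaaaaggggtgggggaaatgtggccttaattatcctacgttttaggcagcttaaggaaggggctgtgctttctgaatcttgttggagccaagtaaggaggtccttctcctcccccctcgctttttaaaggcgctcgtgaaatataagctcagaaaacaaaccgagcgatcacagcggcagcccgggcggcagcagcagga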

How the data were processed

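The deposited matrix holds raw counts of UMIs, antibody tags and hashtags per called barcode. Per the submitters' processing notes, Cell Ranger 3.1 and Seurat 3.1.1 were used and the genome build was mm10; no annotation release is named. The 3 libraries of 1 capture share their barcodes and are not biological replicates.

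Raw counts were gated as described and summed per side and hashtag sample. The planned paired test needed 10 barcodes on both sides and had 1 sample, so pooled CPM (5 CPM added, mean of the sides at least 25 CPM, 2-fold) is the main setting. The test with at least 3 barcodes a side, in 5 samples, was added after the data were seen: edgeR 4.0.16 in R 4.3.3, TMM, filterByExpr, hashtag sample as a block because both sides of a pair are the same sample, Benjamini-Hochberg over all genes. Same-sample deviations correlated at -0.053, -0.015, 0.089, 0.209 and -0.0087 for samples 3, 5, 6, 7 and 8. The steps were tested on simulated data. Python 3.11.15 did the rest.

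Named genes were the 12 largest changes each way among called genes with 1 sign in every pair and at least 50 CPM on the higher side, up to 4 called and 2 uncalled members of each list, and genes said to be chosen later. Plvap and the 8 gate genes are in no count. Members and lists were chosen with earlier results of these data known. No doublet caller was run: the UMI, Ptprc and Krt8 limits and the hashtag margin stood in for it. Alternatives covered normalization, test, filter, block, depth, thresholds and single hashtag samples. Some results are not reported here.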

Additional observations from a re-analysis of the deposited data

Results flagged for a closer look

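Of 49 sets of hashtag values checked, 3 held a sample far from the others, where chance gives about 1 in 20. Gkn3 had a log2 ratio of -1.99 in hashtag sample 7, against -5.75 to -4.74 in the other samples, and its 5 Plvap-positive UMIs all came from 1 barcode. Tpd52l1 had a log2 ratio of -1.71 in sample 7, against -4.33 to -4.07 in the others, with its 3 Plvap-positive UMIs in 1 barcode. The median log2 ratio of the antigen presentation list was 2.33 in sample 3, against 0.34 to 0.59 in the others, and sample 3 gave 4 Plvap-positive barcodes.

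Human hashtags, which no comparison used, had 150 counts in endothelial barcodes, 18 in 8 of the 52 Plvap-positive and 132 in 91 of the 605 Plvap-negative ones, and 18293 in the other barcodes.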

How the results depend on the processing

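Pooled counts past 2-fold were 590 higher and 717 lower with no filter on low counts, 632 and 650 after thinning to 2000 UMIs with Plvap called on the thinned counts, and 585 and 585 with Plvap called on all UMIs. Leaving out hashtag samples in turn gave 285 to 338 higher and 302 to 351 lower.

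For the edgeR counts (88 higher, 135 lower), no filter gave 197 and 351, both thinned settings 46 and 54 higher and 60 and 60 lower, and depth matching 26 and 33. A 90% hashtag margin gave 12 and 11, and removing barcodes with at least 2 myeloid markers 45 and 37; each kept 3 hashtag samples. Leaving out a hashtag sample gave 48 to 111 higher and 68 to 146 lower. The fit with no replicate block gave 139 higher and 158 lower. A 50% margin with at least 10 barcodes a side left 2 samples, with 124 and 113. DESeq2 gave 86 and 136. Tags called ranged from 3 to 5 higher and 3 to 4 lower without each sample.

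Tmsb10, not called, had a value of -1.69 with at most 15000 UMIs (edgeR adjusted p = 1.55e-04). Of the other alternatives over named genes, 2467 kept their side of the threshold, some uncalled genes changing sign among them, 257 lost the call and 65 gained one. Among genes not called, Fzd4 (0.64) went as low as -0.39 and Icam1 (0.16) as low as -1.80. The share of endothelial barcodes with a Plvap UMI ranged from 7.13 to 8.26%. Size factors moved pooled log2 values by 0.04 at most. At least 20 barcodes a side left no sample, and limma on mean CPM was not run, since it was planned for the samples with 10 barcodes; mean CPM gave 372 and 366 genes. Depth limits all of this: 38 Plvap-positive barcodes could be assigned.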
